A study of Homo sapiens with 40 samples.

Results

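The actin filament system was followed through 38 genes, chosen as a fixed list of symbols, among the 60708 genes of the count tables. The list was chosen with earlier results of these data known, so shares of members beside shares of all genes only describe the list. By role, the list held the actin isoforms ACTA2, ACTB and ACTG1, the tropomyosins TPM1 to TPM4, and TAGLN, TAGLN2, CNN1, CNN2, CNN3 and CALD1, which bind along the filament. Myosin II and its kinases were represented by MYL6, MYL9, MYL12A, MYH9, MYH10, MYLK, ROCK1 and ROCK2. The crosslinkers were ACTN1, ACTN4, FLNA and FLNC, and the focal adhesion and LIM domain proteins were VCL, TLN1, ZYX, PXN, TGFB1I1, PDLIM5, PDLIM7, LIMA1 and LMCD1. CFL1 and PFN1 stood for filament turnover, SRF for the transcription factor of the system, and AKAP12 for a scaffold of signalling enzymes at the cell cortex.

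The study examined how TGFβ acts on normal-like and oncogenic breast epithelial cells, and 24 RNA-seq libraries in 8 groups of 3 were used here. MI-spheres were 3D cultures of MCF-10A, an immortalized human mammary epithelial line, and MII-spheres were 3D cultures of MCF-10A-HRAS, its HRAS-transformed derivative (MCF-10AneoT in the study's text), both in ultra-low attachment plates. They were unstimulated (MI Ctrl, MII Ctrl) or received TGFβ1 at 2.5 ng/ml for 16 h (MI TGFβ, MII TGFβ). MDA-MB-231, a triple-negative breast cancer line, was grown as a monolayer, as wild-type cells (WT), as cells with CRISPR/Cas9 disruption of SNAI2, the gene of the repressor SLUG (SLUG KO), and as wild-type cells transfected with siRNAs against SMAD2, SMAD3 and SMAD4 (siSMAD) or with scramble siRNA (Csi). No MDA-MB-231 group has a TGFβ treatment on its labels. Each line is 1 genetic background, the SLUG KO cells were expanded from sorted single cells, and the spheres differ from the monolayers in culture as well as in line, so spheres and MDA-MB-231 cells were not compared in a model. The labels call the 3 libraries of each group biological replicates. The 16 ATAC-seq samples of the series were not analysed here.

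Actin monomers assemble into filaments that tropomyosins coat and stabilize, that α-actinins and filamins crosslink, and that non-muscle myosin II pulls on. Myosin II becomes active when kinases such as MYLK and the ROCK kinases raise phosphorylation of its regulatory light chain, and the resulting tension reaches the matrix at focal adhesions through talin, vinculin, zyxin and paxillin. In epithelial cells TGFβ is known for building stress fibres during epithelial-mesenchymal transition (EMT), and SRF is known for driving many actin genes through the CArG box, a short A- and T-rich element framed by C and G pairs.

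Promoters of the members were examined for the CArG box because it is the element that SRF binds. RefSeq windows (250 bases before to 50 after a start, GRCh38.p14) were present for 35 of the 38 members (not for ACTB, TAGLN and MYL9), 60 windows in all. Both strands were searched, and 10 windows (16.7%), each of another member, held a match, against 454 of all 35093 windows (1.294%). Those members were ACTG1, ACTN1, AKAP12, CNN2, FLNA, MYLK, ROCK2, SRF, TGFB1I1 and TPM4. The windows of AKAP12, with the largest rise under TGFβ among members tested in both sphere lines, of FLNA and TGFB1I1, which were furthest down in unstimulated MII-spheres, and of SRF itself are printed here 5′ to 3′ with the CArG match in capitals. They lie at chr6:151239717-151240016 (plus strand), chrX:154374585-154374884 (minus strand), chr16:31472955-31473254 (plus strand) and chr6:43171019-43171318 (plus strand), each across 1 of the starts RefSeq gives its gene, and the other windows of AKAP12, TGFB1I1 and SRF held no match.
AKAP12: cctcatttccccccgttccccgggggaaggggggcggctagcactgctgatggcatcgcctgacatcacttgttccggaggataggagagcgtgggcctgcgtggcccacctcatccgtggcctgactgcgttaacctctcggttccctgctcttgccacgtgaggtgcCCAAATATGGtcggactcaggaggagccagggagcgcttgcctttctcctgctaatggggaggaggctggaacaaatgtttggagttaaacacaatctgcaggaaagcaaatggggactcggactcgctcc
FLNA: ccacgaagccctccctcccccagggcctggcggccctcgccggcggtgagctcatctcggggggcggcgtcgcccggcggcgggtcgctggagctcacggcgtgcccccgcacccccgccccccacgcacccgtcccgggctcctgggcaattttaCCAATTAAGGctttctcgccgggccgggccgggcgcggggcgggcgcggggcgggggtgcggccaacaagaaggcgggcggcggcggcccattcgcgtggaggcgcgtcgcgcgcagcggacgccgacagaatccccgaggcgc
TGFB1I1: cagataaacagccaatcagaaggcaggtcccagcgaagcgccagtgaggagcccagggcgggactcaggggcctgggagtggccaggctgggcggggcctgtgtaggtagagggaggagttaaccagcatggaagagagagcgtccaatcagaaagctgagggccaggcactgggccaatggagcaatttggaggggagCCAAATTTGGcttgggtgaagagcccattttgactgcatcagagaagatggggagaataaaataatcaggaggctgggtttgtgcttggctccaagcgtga
SRF: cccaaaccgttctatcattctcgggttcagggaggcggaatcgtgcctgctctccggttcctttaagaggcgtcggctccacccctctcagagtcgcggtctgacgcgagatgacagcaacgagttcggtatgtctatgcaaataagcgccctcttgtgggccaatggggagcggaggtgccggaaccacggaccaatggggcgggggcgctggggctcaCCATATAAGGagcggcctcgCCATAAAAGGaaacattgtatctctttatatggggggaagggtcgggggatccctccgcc
The matches began 81 bases before the start in AKAP12, 94 in FLNA and 51 in TGFB1I1, and SRF held a pair, at 30 and 10 bases before its start. Of motifs linked to TGFβ signalling, the SMAD-binding motif CAGAC lay in windows of 20 members (30 of 60 windows, against 45.245% of all windows), and the AP-1 motif TGANTCA in windows of 3 members (6.7% of their windows, against 7.705%). The palindrome GTCTAGAC was found in 0 member windows and in 0.202% of all windows. Both strands were searched for each, and none of the motifs contains another. A match describes the letters only.

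Library totals ranged from 14124688 to 38406952 counts. Levels are given as CPM, counts scaled for library depth with TMM factors, for comparisons of 1 gene between libraries, and as TPM, counts scaled for gene length and depth over the 19929 nuclear protein-coding genes, for comparisons between genes. The labels were checked on the targeted genes: HRAS was at 76.2 to 79.4 TPM in MI Ctrl and 462 to 481 TPM in MII Ctrl libraries, and SMAD2, SMAD3 and SMAD4 were lower in siSMAD than in Csi libraries (log2 fold-changes -1.92, -0.69 and -1.72). SNAI2 RNA was higher, not lower, in libraries labelled SLUG KO (log2 fold-change 1.10, adjusted p = 0.0399), and since an indel need not lower the RNA, its level checks nothing. WT replicate 2 stood apart, with correlations of 0.9327 and 0.9269 to the other WT libraries, where every pair of the other groups reached at least 0.99. MII TGFβ replicate 3 stood apart within its own group, on 9 genes chosen after their values were seen. These were at 100 CPM or more in every WT and SLUG KO library and under 1 CPM in every MII Ctrl library. They summed to 18.5 CPM in MII TGFβ replicate 3, against 3.34 and 4.23 CPM in the other MII TGFβ libraries. The same genes summed to 9.43, 12.7 and 8.27 CPM in MI TGFβ libraries, against 4.48 to 5.63 CPM in MI Ctrl libraries. Spheres expressed basal keratins and CDH1, E-cadherin (338 to 543 TPM), and MDA-MB-231 cells VIM, vimentin (609 to 1033 TPM, against at most 9.23 TPM in spheres). CDH1 and VIM did not stand for all genes of their lists. The luminal epithelial list, with CDH1, overlapped, at 1767 to 3687 TPM in sphere and 1722 to 3059 TPM in MDA-MB-231 libraries. KRT19 of that list was at 552 to 1303 TPM in MDA-MB-231 libraries, against at most 25.8 TPM in spheres. CDH2, of the mesenchymal list with VIM, was lower in every MDA-MB-231 library than in every MI TGFβ, MII Ctrl and MII TGFβ library. Marker lists moved with TGFβ. The basal keratin list went from 2106 to 2189 TPM in MI Ctrl to 3767 to 3900 TPM in MI TGFβ, and from 617 to 626 TPM in MII Ctrl to 2044 to 2174 TPM in MII TGFβ libraries. The mesenchymal list went from 17.1 to 18.9 TPM in MI Ctrl to 61.9 to 75.9 TPM in MI TGFβ, and from 46.8 to 48.5 TPM in MII Ctrl to 50.0 to 54.8 TPM in MII TGFβ libraries. In MII-spheres FN1 made up most of this sum, and its median went from 40.6 to 36.9 TPM with TGFβ. The medians of VIM and CDH2 went from 2.82 to 6.04 TPM and from 2.31 to 5.55 TPM, and that of ZEB1 from 1.66 to 1.55 TPM. In the edgeR test used below, with TMM scaling, 2 of these 4 genes were higher and 0 lower in MII-spheres. The log2 fold-changes ran from 0.093 to 1.51, so the lower TPM medians of FN1 and ZEB1 were not falls in that fit. The endothelial list, with CDH5 and PECAM1, went from 21.9 to 24.4 TPM to 6.43 to 7.64 TPM in MI- and from 78.9 to 81.5 TPM to 56.3 to 64.5 TPM in MII-spheres. In MI-spheres the median of CDH5 went from 17.2 to 1.385 TPM and that of PECAM1 from 5.89 to 5.255 TPM. In MII-spheres PECAM1 made up most of the sum (71.4 to 54.9 TPM), and CDH5 went from 9.60 to 4.76 TPM. The part of these lists in the results below was not tested. Markers of vascular smooth muscle and pericytes, cells that share contractile genes with the list, summed to 0.508 to 5.50 TPM over all 24 libraries (4 genes, 2 of which also stand among the other actin genes below), fibroblast markers to 0.064 to 30.7 TPM and leukocyte markers to at most 0.695 TPM.

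The cytoplasmic actins, which build the filaments of all non-muscle cells, were the most abundant members in every group. ACTG1 exceeded ACTB in MI Ctrl (3383 ± 81.0 TPM against 1606 ± 87.9 TPM, SD, n = 3) and in MII Ctrl (3409 ± 64.3 TPM against 1519.8 ± 40.0 TPM). In Csi libraries the order was turned, with ACTB at 6314 ± 143 TPM and ACTG1 at 4823 ± 155 TPM. WT libraries spread too widely to place them, with ACTB at 5866 ± 2598 TPM and ACTG1 at 3999 ± 159 TPM. Below the actins in MI Ctrl came MYL6, the essential light chain of myosin II, at 608 ± 8.92 TPM and PFN1, profilin, at 601 ± 18.5 TPM, a pair that did not differ beyond its spread.

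The genes that mark smooth muscle were near absent from the spheres. CNN1, the smooth muscle calponin, was at 0 in 8 of the 12 sphere libraries and at most 0.326 TPM in the others. MYL9, the smooth muscle-type regulatory light chain, lay between 0 and 1.19 TPM in spheres, and FLNC, the muscle filamin, between 0.0587 and 1.48 TPM. In MDA-MB-231 cells CNN1 stayed at or under 0.252 TPM, but MYL9 was at 269.9 ± 7.97 TPM and FLNC at 170.5 ± 9.03 TPM in Csi libraries. ACTA2, smooth muscle α-actin, was at 2.25 to 7.65 TPM in all 24 libraries, and TAGLN, transgelin, at 0.659 to 10.8 TPM. Other genes overlap 30.8% of the exon bases of ACTA2 and 47.8% of those of TAGLN, and since the counting is not stated to use strand, reads of overlapping genes cannot be told apart. Summed over the list, the 38 members made up 0.924% of TPM in MI Ctrl, 1.15% in MI TGFβ, 0.97% in MII Ctrl and 1.14% in MII TGFβ libraries.

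**Figure D1:**
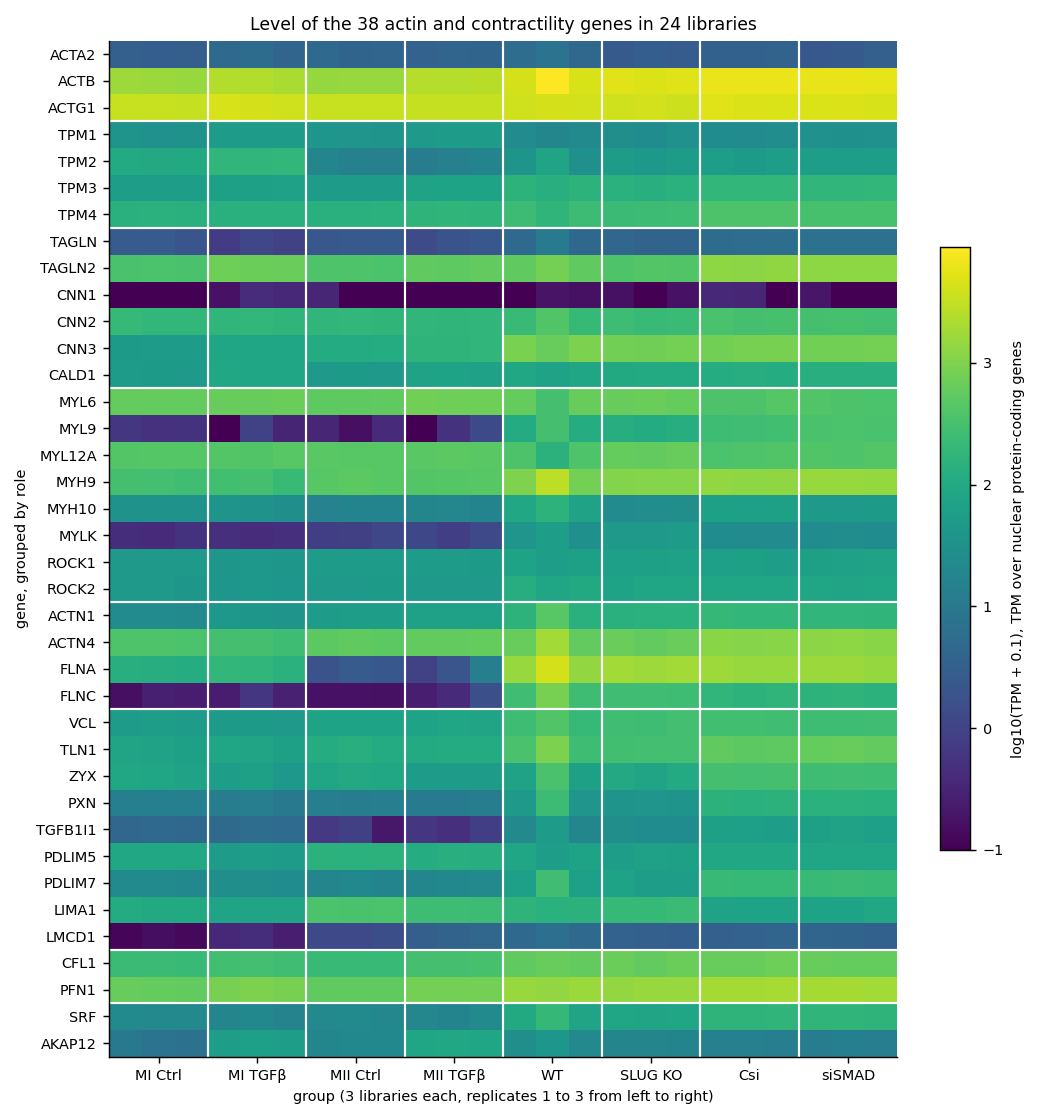
Level of each of the 38 genes (rows, grouped by role) in each of the 24 libraries (columns, 3 per group), as log10(TPM + 0.1). ACTB and ACTG1 are brightest throughout, CNN1 is dark throughout, MYL9 and FLNC are dark in the 12 sphere libraries, FLNA and TGFB1I1 are darker in MII- than in MI-spheres, and WT replicate 2 differs from its neighbours in many rows.

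With TGFβ most of the members tested rose in both sphere lines. In MI-spheres 34 members were abundant enough to test, of which 21 were higher and 5 lower with TGFβ in the quasi-likelihood test of edgeR (Benjamini-Hochberg adjusted p under 0.05), where 28.7% of all 16863 genes tested were higher and 27.4% lower. In MII-spheres 24 of 34 were higher and 3 lower, against 29.9% and 27.6% of 16396 genes. A log2 fold-change over 1 in size as well, the rule for differentially expressed genes (DEGs), was met by 3 members upward and 1 downward in MI-spheres, where 3.64% and 9.92% of all genes met it. In MII-spheres it was met by 3 upward and, since no member fell by more than 0.54, by 0 downward, against 3.12% and 7.50%. The median log2 fold-change of the members tested was 0.25 in MI- and 0.31 in MII-spheres, against -0.02 for all genes in both lines. Counts scaled by library totals alone gave 15 higher and 7 lower in MI- and 18 higher and 3 lower in MII-spheres, and moved the median of all genes to -0.15 in both. That scaling called 9579 of 16863 genes in MI- and 9600 of 16396 in MII-spheres in either direction. Of 33 members tested in both lines, 17 were higher and 3 lower in both, where 20.5% and 17.1% of 15462 genes were. FLNA was among these 17, and among the 24 members higher and the 3 upward DEGs in MII-spheres, through 1 library. In bulk RNA, a change in the share of a cell type and a change in RNA per cell cannot be told apart.

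**Figure D2:**
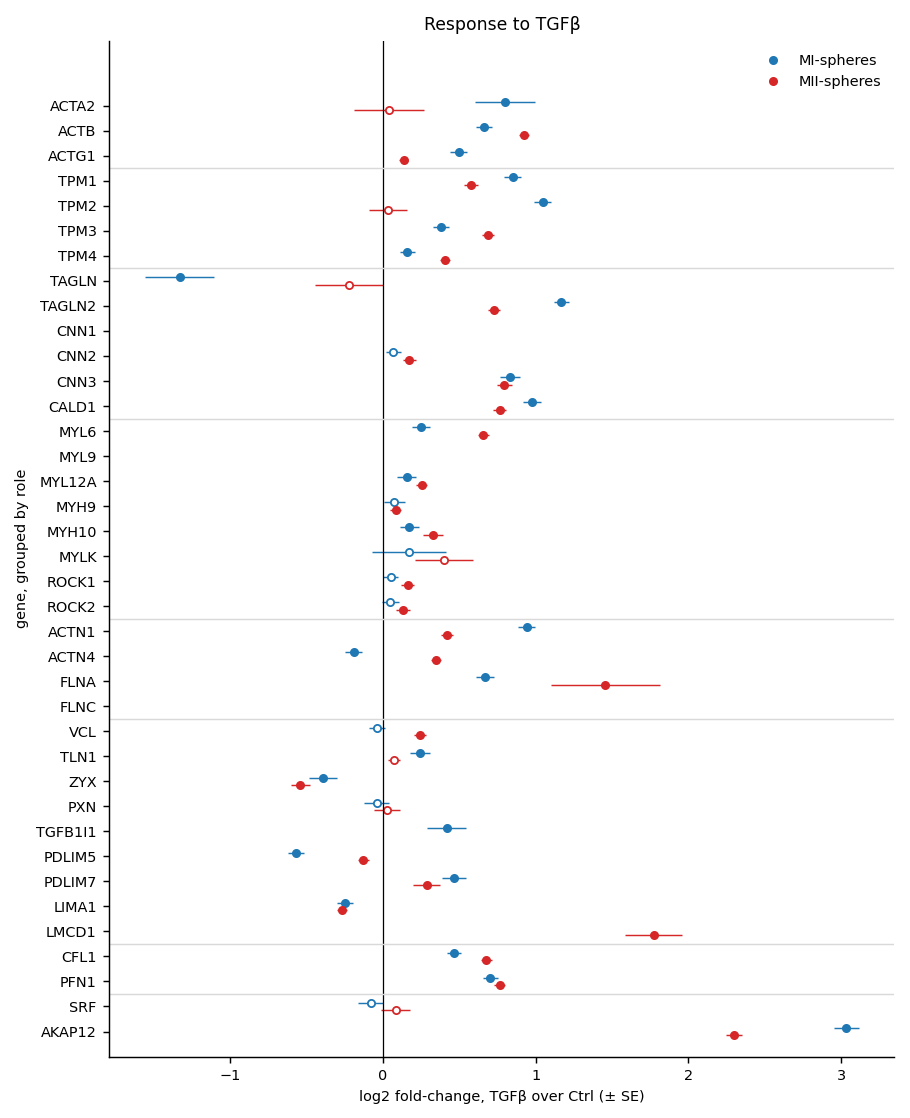
Response to TGFβ of each member in MI-spheres (blue) and MII-spheres (red), as log2 fold-change over Ctrl with its SE from edgeR. Filled points had an adjusted p under 0.05, open points did not, and members without a point were not tested in that line. Most filled points lie to the right of 0, with AKAP12 farthest to the right in both lines.

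AKAP12, which anchors protein kinases A and C near the membrane and cortical actin, showed the largest rise among members tested in both lines. It was at 17.7, 13.5 and 13.4 CPM in MI Ctrl and at 124, 125 and 126 CPM in MI TGFβ libraries, a log2 fold-change of 3.04 ± 0.08 (SE, adjusted p = 1.15e-17). In MII-spheres it went from 31.3, 32.8 and 33.0 to 161, 167 and 162 CPM, a log2 fold-change of 2.30 ± 0.05 (SE, adjusted p = 1.38e-39). Stimulated libraries lay far above unstimulated ones in each line, and the MII libraries started higher and ended higher. The rise was nonetheless smaller in MII-spheres, by 0.73 on the log2 scale in the interaction test (MII minus MI, -0.73 ± 0.094, adjusted p = 1.08e-07). SRF, in contrast, was at 19.0, 18.6 and 19.2 CPM in MI Ctrl and 17.8, 19.6 and 17.3 CPM in MI TGFβ libraries, and its log2 fold-changes of -0.08 in MI- and 0.08 in MII-spheres did not pass the test (adjusted p = 0.424 and 0.478).

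In TMM-scaled counts both cytoplasmic actins rose in both lines, ACTB more in MII- and ACTG1 more in MI-spheres. ACTB was at 1546, 1472 and 1418 CPM in MI Ctrl and 2446, 2384 and 2299 CPM in MI TGFβ, and at 1235, 1286 and 1246 CPM in MII Ctrl and 2412, 2382 and 2512 CPM in MII TGFβ libraries. ACTG1 was at 2906, 2857 and 2835 CPM in MI Ctrl and 4344, 3942 and 4018 CPM in MI TGFβ, and at 2557, 2622 and 2592 CPM in MII Ctrl and 2917, 2841 and 2967 CPM in MII TGFβ libraries. Stimulated and unstimulated libraries did not overlap for either gene in either line, although the ACTG1 step in MII-spheres was narrow. ACTB rose by 0.66 ± 0.053 (SE, adjusted p = 1.31e-09) in MI- and 0.92 ± 0.032 (SE, adjusted p = 2.29e-30) in MII-spheres on the log2 scale. ACTG1 rose by 0.49 ± 0.054 (SE, adjusted p = 1.28e-07) in MI- and 0.13 ± 0.031 (SE, adjusted p = 0.000265) in MII-spheres. The ACTB response was thus stronger and the ACTG1 response weaker in MII-spheres (interaction 0.27, adjusted p = 0.000723, and -0.35, adjusted p = 1.67e-05). Scaling by library totals left ACTG1 in MII-spheres with a log2 fold-change of 0.0028 (adjusted p = 0.941). In TPM, ACTG1 was at 3338, 3464 and 3424 in MII Ctrl and lower, at 3277, 3253 and 3321, in MII TGFβ libraries. Its direction in MII-spheres thus depended on the scaling. Both genes have processed pseudogenes of near-identical sequence and reads shared with them do not pass the mapping quality filter, so their counts are uncertain. ACTA2 was at 1.99, 1.83 and 1.92 CPM in MI Ctrl and 3.44, 3.73 and 3.02 CPM in MI TGFβ libraries, a rise without overlap (log2 fold-change 0.80 ± 0.19 SE, adjusted p = 0.00147). In MII-spheres ACTA2 was at 2.74, 2.17 and 2.18 CPM and 2.32, 2.55 and 2.48 CPM, where the groups overlapped (log2 fold-change 0.04, adjusted p = 0.896), and the difference between lines did not pass the test (interaction -0.75 ± 0.29, adjusted p = 0.0603).

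The tropomyosins divided by line. TPM2 was at 69.0, 63.4 and 69.3 CPM in MI Ctrl and 139.6, 134.4 and 148.7 CPM in MI TGFβ libraries, and at 11.3, 9.01 and 8.57 CPM in MII Ctrl and 8.40, 9.74 and 11.7 CPM in MII TGFβ libraries. It rose in MI-spheres (log2 fold-change 1.04 ± 0.057 SE, adjusted p = 2.48e-12), while in MII-spheres it was low with overlapping groups (0.03, adjusted p = 0.835). The responses differed (interaction -0.998 ± 0.13, adjusted p = 8.92e-08). TPM1 rose in both lines, by 0.85 in MI- and 0.57 in MII-spheres on the log2 scale (adjusted p = 7.41e-11 and 1.41e-15), and less in MII-spheres (interaction -0.26, adjusted p = 0.0103). TPM3 and TPM4, whose products include the short cytoplasmic tropomyosins, took the opposite order, with log2 fold-changes of 0.38 and 0.16 in MI- and 0.69 and 0.41 in MII-spheres. For both the interaction passed the test (0.32, adjusted p = 0.000391, and 0.26, adjusted p = 0.00112). With library totals the TPM4 call in MI-spheres was lost (0.02, adjusted p = 0.696).

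Among transgelins and calponins, TAGLN2 rose and TAGLN did not. TAGLN2, the transgelin of epithelial and blood cells, was at 161, 163 and 162 CPM in MI Ctrl and 385, 357 and 367 CPM in MI TGFβ libraries, and at 165.4, 163.7 and 150.4 CPM and 269.5, 261.1 and 280.9 CPM in MII libraries without and with TGFβ. The groups were far apart in both lines, with log2 fold-changes of 1.17 ± 0.05 (SE, adjusted p = 4.52e-14) in MI- and 0.73 ± 0.04 (SE, adjusted p = 5.48e-22) in MII-spheres, and the rise was smaller in MII-spheres (interaction -0.43, adjusted p = 2.56e-06). TAGLN, known as a smooth muscle gene induced by TGFβ in mesenchymal cells, was at 3.45, 3.48 and 2.68 CPM in MI Ctrl and 1.03, 1.53 and 1.29 CPM in MI TGFβ libraries, lower in every stimulated library (log2 fold-change -1.33 ± 0.23 SE, adjusted p = 4.07e-05). In MII-spheres it was at 2.55, 2.76 and 3.00 CPM and 1.79, 2.48 and 3.02 CPM, with overlapping groups (log2 fold-change -0.23, adjusted p = 0.395). The TAGLN responses differed (interaction 1.12, adjusted p = 0.00906), and without MII TGFβ replicate 3 the difference did not pass the test (0.90, adjusted p = 0.064). At these low counts, and with the exon overlap given above, the TAGLN values are uncertain.

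CALD1 and CNN3, filament-binding proteins that restrain myosin, rose in both lines. CALD1, caldesmon, was at 103.5, 99.7 and 95.9 CPM in MI Ctrl and 205, 183 and 209 CPM in MI TGFβ libraries (log2 fold-change 0.97 ± 0.057 SE, adjusted p = 8.29e-12), and rose by 0.76 ± 0.044 (SE, adjusted p = 5.83e-21) in MII-spheres. CNN3, the calponin of non-muscle cells, was at 28.0, 30.5 and 31.5 CPM in MI Ctrl and 55.2, 51.1 and 56.0 CPM in MI TGFβ libraries, and at 58.9, 58.4 and 60.4 CPM in MII Ctrl and 102.4, 101.2 and 111.8 CPM in MII TGFβ libraries. CNN3 was higher in every stimulated library of each line, with log2 fold-changes of 0.83 and 0.79 (adjusted p = 1.5e-09 and 1.91e-19) and no difference past the test (interaction -0.03 ± 0.085, adjusted p = 0.871). CNN2 passed the test in MII-spheres (log2 fold-change 0.17, adjusted p = 0.000737) and not in MI-spheres (0.07, adjusted p = 0.268), and the interaction did not pass it (0.12, adjusted p = 0.251). With library totals the CNN2 call in MII-spheres was lost (0.04, adjusted p = 0.441).

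The myosin II genes moved little in MI-spheres, with log2 fold-changes of at most 0.25, and by up to 0.66 in MII-spheres. Among the 7 that were tested, 3 were higher in MI- and 6 in MII-spheres, and 0 were lower in either line, also at an unadjusted p under 0.05 and by DESeq2. Of all genes tested, 28.7% were higher and 27.4% lower in MI-, and 29.9% higher and 27.6% lower in MII-spheres. MYL6 was at 562, 551 and 575 CPM in MI Ctrl and 656.0, 631.8 and 750.1 CPM in MI TGFβ libraries, and at 449, 437 and 453 CPM in MII Ctrl and 753, 689 and 715 CPM in MII TGFβ libraries. Its log2 fold-change was 0.25 ± 0.058 (SE, adjusted p = 0.00106) in MI- and 0.66 ± 0.035 (SE, adjusted p = 1.56e-22) in MII-spheres, a larger rise in MII-spheres (interaction 0.42, adjusted p = 1.32e-05). With library totals the MYL6 call in MI-spheres was lost (0.11, adjusted p = 0.0627). MYH9 and MYH10, the heavy chains of myosin IIA and IIB, had log2 fold-changes of 0.07 (adjusted p = 0.38) and 0.17 (adjusted p = 0.0218) in MI-spheres. In MII-spheres they were 0.08 (adjusted p = 0.0347) and 0.33 (adjusted p = 5.09e-05), and the MYH9 value turned to -0.05 when counts were scaled by library totals. The MYH10 call in MI-spheres was lost with library totals (0.04, adjusted p = 0.657). It was also lost with no low-count filter (0.0559) and without MI Ctrl replicate 2 (0.0627) or MI TGFβ replicate 1 (0.115). The regulatory light chain MYL12A had log2 fold-changes of 0.15 and 0.25 (adjusted p = 0.0385 and 2.91e-08), but its MI groups overlapped and the MI call was lost with library totals (0.02, adjusted p = 0.811) and without MI Ctrl replicate 1 or 2 or MI TGFβ replicate 1 or 3 (adjusted p from 0.0527 to 0.14). The kinases ROCK1 and ROCK2 rose by 0.16 and 0.13 in MII-spheres (adjusted p = 0.00156 and 0.0118), not with library totals (0.03 and 0.00, adjusted p = 0.578 and 0.995), and in MI-spheres were at 0.05 and 0.05 (adjusted p = 0.424 and 0.497). MYLK, myosin light chain kinase, was low in all spheres, at 1.36 to 5.50 CPM, and did not pass the test in either line.

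Among the crosslinkers, ACTN4 was called in opposite directions in the lines, as no other member was. ACTN4, a non-muscle α-actinin, was at 488, 483 and 458 CPM in MI Ctrl and 449, 434 and 387 CPM in MI TGFβ libraries, and at 580.6, 624.8 and 564.4 CPM in MII Ctrl and 765, 743 and 797 CPM in MII TGFβ libraries. It fell in MI-spheres (log2 fold-change -0.19 ± 0.057 SE, adjusted p = 0.00717) and rose in MII-spheres (0.35 ± 0.035 SE, adjusted p = 3.95e-12), and the difference passed the test (interaction 0.55 ± 0.07, adjusted p = 6.63e-08). The fall in MI-spheres did not pass the test with a GC-content correction (-0.08, adjusted p = 0.143) or without MI Ctrl replicate 2 (-0.17, adjusted p = 0.0521). ACTN1, the α-actinin of stress fibres, was at 71.9, 73.1 and 67.4 CPM in MI Ctrl and 147.1, 137.7 and 129.6 CPM in MI TGFβ libraries, and at 149.5, 161.8 and 156.1 CPM in MII Ctrl and 214, 211 and 215 CPM in MII TGFβ libraries. It rose in both lines without overlap, by 0.94 in MI- and 0.42 in MII-spheres (adjusted p = 2.27e-11 and 2.54e-13), less in MII-spheres (interaction -0.51, adjusted p = 4.65e-07).

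FLNA, filamin A, which crosslinks filaments into networks and ties them to integrins, rose in MI-spheres. It was at 279.8, 272.6 and 270.4 CPM in MI Ctrl and 476.7, 449.9 and 399.2 CPM in MI TGFβ libraries (log2 fold-change 0.67 ± 0.059 SE, adjusted p = 6.25e-09). In MII-spheres it was at 3.53, 5.10 and 4.37 CPM in Ctrl and 1.98, 4.58 and 31.1 CPM in TGFβ libraries, so that 1 stimulated library stood above the unstimulated ones and the groups overlapped. The fitted log2 fold-change of 1.45 ± 0.36 (SE, adjusted p = 0.00049) in MII-spheres rested on replicate 3: without it the value was -0.45 (adjusted p = 0.0905), and by DESeq2 the adjusted p was 0.277. FLNC showed the same order of libraries, at 0.331, 0.588 and 3.02 CPM in MII TGFβ. Genes abundant in MDA-MB-231 cells were also highest in that library among the MII TGFβ libraries, all 9 of those counted above, at 0.691% of their mean WT sum. In MI TGFβ libraries the same genes were at 0.3095% to 0.4768% of it. The part of these genes in the FLNA value was not tested.

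Focal adhesion and LIM domain genes went both ways. ZYX, zyxin, a sensor of filament strain, was at 61.3, 57.3 and 49.8 CPM in MI Ctrl and 45.3, 49.5 and 36.0 CPM in MI TGFβ libraries, and at 51.2, 58.8 and 54.7 CPM in MII Ctrl and 38.2, 39.0 and 39.0 CPM in MII TGFβ libraries. It fell in both lines, by 0.39 ± 0.093 (SE, adjusted p = 0.00124) in MI- and 0.54 ± 0.061 (SE, adjusted p = 7e-11) in MII-spheres on the log2 scale. PDLIM5, a PDZ and LIM protein that binds α-actinin, was at 205, 218 and 205 CPM in MI Ctrl and 141, 142 and 146 CPM in MI TGFβ libraries, and at 311, 301 and 312 CPM in MII Ctrl and 277.6, 295.8 and 289.9 CPM in MII TGFβ libraries. Stimulated libraries were lower without overlap in both lines (log2 fold-changes -0.57 and -0.13, adjusted p = 5.61e-09 and 0.00192), and the fall was smaller in MII-spheres (interaction 0.45, adjusted p = 4.89e-07). LIMA1, which bundles filaments in epithelial cells, fell by similar amounts (log2 fold-changes -0.25 and -0.27, adjusted p = 0.000344 and 3.5e-09, interaction -0.01 ± 0.063).

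PDLIM7 rose in both lines (0.46 and 0.29, adjusted p = 3.71e-05 and 0.00563), but the MII call was lost with library totals (0.15, adjusted p = 0.141). VCL, vinculin, had log2 fold-changes of -0.04 in MI- (adjusted p = 0.558) and 0.24 in MII-spheres (adjusted p = 8.46e-07), and its responses differed (interaction 0.29, adjusted p = 0.000828). TLN1, talin, which links integrins to actin, was at 0.24 (adjusted p = 0.00357) and 0.07 (adjusted p = 0.0974), with no difference past the test (interaction adjusted p = 0.161). Its MI call was lost with library totals (0.11, adjusted p = 0.215). PXN, paxillin, did not pass the test in either line (-0.04 and 0.03, adjusted p = 0.682 and 0.797). TGFB1I1, a paxillin relative also named HIC-5, was at 4.72, 5.36 and 5.21 CPM in MI Ctrl and 6.58, 7.05 and 7.01 CPM in MI TGFβ libraries (log2 fold-change 0.42 ± 0.13 SE, adjusted p = 0.00883). The call was lost without MI Ctrl replicate 1 (adjusted p = 0.0506), by DESeq2 (0.0513) and with library totals (0.0691).

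LMCD1, a LIM domain protein that also acts as a cofactor of transcription, was rare and yet stepped up in both lines. It was at 1.89, 1.87 and 2.46 CPM in MII Ctrl and 6.15, 7.06 and 8.39 CPM in MII TGFβ libraries, every stimulated library above every unstimulated one (log2 fold-change 1.77 ± 0.18 SE, adjusted p = 6.88e-12). In MI-spheres it was too low to be tested after filtering, with 1 or 2 reads per MI Ctrl library (4 in all) against 37 over the MI TGFβ libraries. That is a ratio of 9.14 after scaling, with an exact 95% interval from 3.28 to 35.3 that covers counting error only. Of the turnover genes, PFN1, which feeds monomers to growing filaments, was at 205, 201 and 197 CPM in MI Ctrl and 322, 337 and 336 CPM in MI TGFβ libraries, and CFL1, cofilin, which severs filaments, at 283, 282 and 279 CPM and 397.2, 389.6 and 398.7 CPM. Both rose in both lines without overlap. PFN1 had log2 fold-changes of 0.70 and 0.76 (adjusted p = 1.58e-10 and 2.9e-24), and CFL1 of 0.47 and 0.68 (adjusted p = 5.05e-08 and 7.39e-23), larger in MII-spheres (interaction 0.22, adjusted p = 0.00465).

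In the interaction test over the 12 sphere libraries, 9 of 36 members tested responded more positively in MII- and 7 more positively in MI-spheres, where 12.6% and 9.75% of 18591 genes did. More positive in MII-spheres were ACTB, TPM3, TPM4, TAGLN, MYL6, ACTN4, VCL, PDLIM5 and CFL1. More positive in MI-spheres were ACTG1, TPM1, TPM2, TAGLN2, CALD1, ACTN1 and AKAP12. The CALD1 difference (-0.20, adjusted p = 0.0469) was at the edge of the threshold.

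Other genes of the actin system, 94 in 7 lists (among them the Arp2/3 complex and its activators, monomer binding, severing and capping, bundling and cortex, myosin control, adhesion site adaptors, and SRF cofactors), gave the surroundings. With TGFβ, 47 of 88 tested were higher and 14 lower in MI-, and 53 of 87 higher and 11 lower in MII-spheres. Of all genes tested, 28.7% were higher and 27.4% lower in MI-, and 29.9% higher and 27.6% lower in MII-spheres. The same shares apply to the counts per list that follow. Monomer binding, severing and capping genes were higher in 11 of 15 in MI- and 13 of 15 in MII-spheres. The Arp2/3 list, whose complex branches filaments, had 9 of 17 and 12 of 17 higher, and of the 5 SRF cofactors 2 were higher in each line. The largest rises were those of MSN, moesin (1.62, adjusted p = 8.14e-16), and PALLD, palladin (1.40, adjusted p = 1.44e-12), in MI-, and of the formin DIAPH3 (2.32, adjusted p = 2.89e-09) and the cytokinesis scaffold ANLN (2.03, adjusted p = 7.29e-32) in MII-spheres. The largest falls were those of MYH14, the heavy chain of myosin IIC (-0.93, adjusted p = 1.83e-10), and RND3 (-0.92, adjusted p = 1.01e-11) in MI-, and of ILK (-0.84, adjusted p = 0.0253) and RHOB (-0.37, adjusted p = 9.3e-12) in MII-spheres. DIAPH3 and ANLN also had the largest interactions toward MII-spheres (2.26 and 1.79, adjusted p = 1.22e-07 and 4.09e-17), and PALLD and FSCN1, fascin, the largest toward MI-spheres (-0.78 and -0.65, adjusted p = 8.6e-08 and 1.3e-07).

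The unstimulated lines were compared next, to show how HRAS-transformed spheres differ before any stimulus. This comparison shares its Ctrl libraries with the TGFβ comparisons. Of 35 members tested, 11 were higher and 15 lower in MII Ctrl than in MI Ctrl in the same edgeR test, where 31.7% of 17862 genes were higher and 32.5% lower. The median log2 fold-change was -0.06, against 0.02 for all genes. A log2 fold-change over 1 in size was reached by 9 members, 5 up and 4 down, against 12.5% and 7.62% of all genes.

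**Figure D3:**
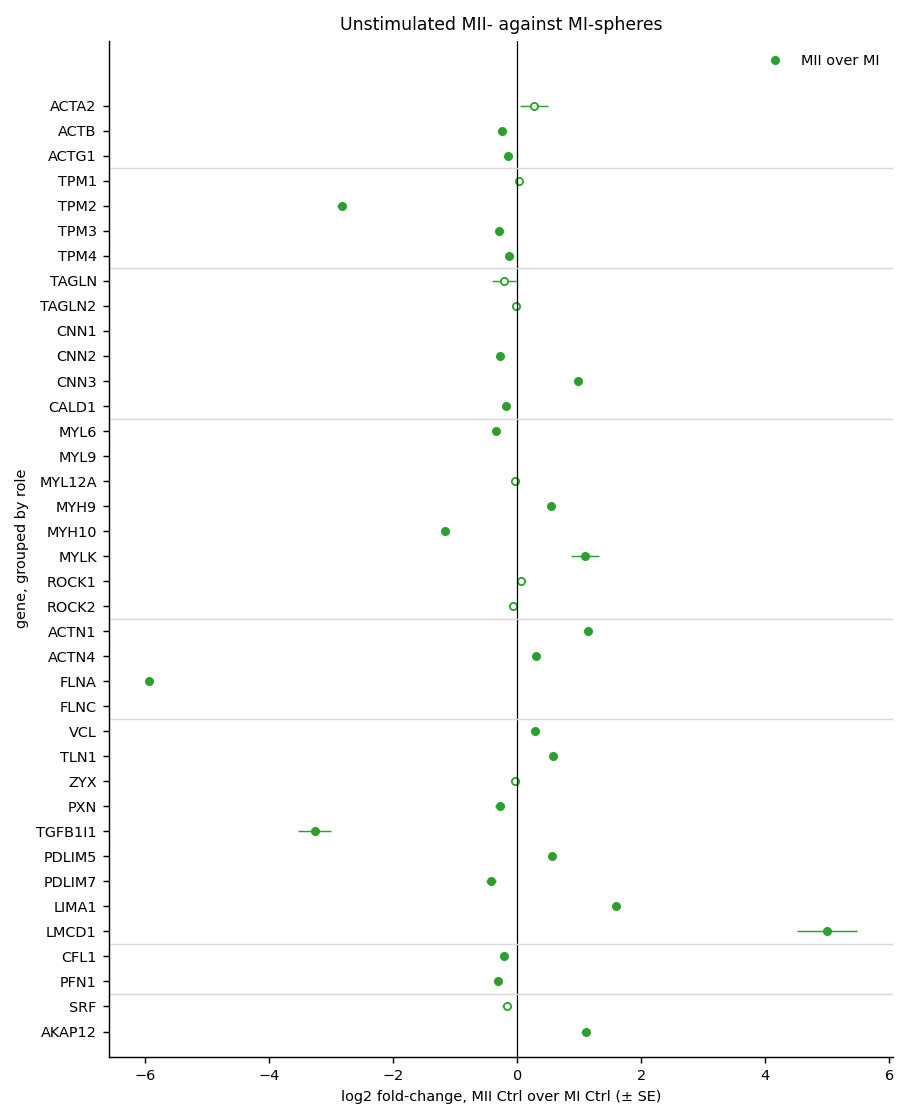
Log2 fold-change of each member in unstimulated MII- over MI-spheres, with its SE from edgeR. Filled points had an adjusted p under 0.05. FLNA, TGFB1I1 and TPM2 lie farthest to the left, at -5.93, -3.27 and -2.83, and LMCD1 farthest to the right.

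FLNA was the member farthest down. It was at 279.8, 272.6 and 270.4 CPM in MI Ctrl and 3.53, 5.10 and 4.37 CPM in MII Ctrl libraries, a log2 fold-change of -5.93 ± 0.064 (SE, adjusted p = 4.47e-56). Filamin A transcripts were thus nearly absent from MII-spheres, at 2.13 ± 0.397 TPM against 120.8 ± 3.46 TPM, while MDA-MB-231 Csi libraries held 1564 ± 63.8 TPM. TGFB1I1 fell from 4.72, 5.36 and 5.21 to 0.588, 0.756 and 0.109 CPM (log2 fold-change -3.27 ± 0.27 SE, adjusted p = 5.05e-16) and TPM2 from 69.0, 63.4 and 69.3 to 11.3, 9.01 and 8.57 CPM (-2.83 ± 0.074 SE, adjusted p = 7.6e-38). For these 3 members every MII Ctrl library lay below every MI Ctrl library.

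Myosin II heavy chains differed in their makeup between the lines. MYH10 was at 63.8, 62.2 and 62.4 CPM in MI Ctrl and 26.6, 28.3 and 29.1 CPM in MII Ctrl libraries (log2 fold-change -1.17 ± 0.058 SE, adjusted p = 7.88e-25), while MYH9 was at 565, 545 and 504 CPM and 767, 828 and 778 CPM (0.55 ± 0.037 SE, adjusted p = 2.16e-19). MYH14 was lower as well (-2.92, adjusted p = 4.44e-48). MII-spheres therefore held less MYH10 and more MYH9 RNA than MI-spheres, with no overlap for either gene. MYLK was at 1.54, 1.36 and 2.07 CPM and 3.07, 3.19 and 4.37 CPM, low in both lines and higher in MII (1.09, adjusted p = 1.85e-05). The ROCK kinases did not pass the test (0.06 and -0.06, adjusted p = 0.219 and 0.235).

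Among the members higher in MII-spheres, LIMA1 was at 143, 134 and 137 CPM in MI Ctrl and 425, 403 and 422 CPM in MII Ctrl libraries (log2 fold-change 1.59 ± 0.038 SE, adjusted p = 7.64e-40). ACTN1 was at 71.9, 73.1 and 67.4 CPM and 149.5, 161.8 and 156.1 CPM (1.14 ± 0.044 SE, adjusted p = 6.56e-30), and AKAP12 rose by 1.10 ± 0.078 (SE, adjusted p = 2.3e-18). CNN3 was 0.98 higher on the log2 scale (adjusted p = 1.95e-21), and TLN1, PDLIM5, ACTN4 and VCL were 0.57, 0.55, 0.31 and 0.28 higher (adjusted p = 6.95e-18, 1.18e-19, 1.42e-10 and 1.49e-08). LMCD1 had the highest fitted value (4.99, adjusted p = 3.12e-13), but rested on 4 reads over the MI Ctrl libraries in all, with a scaled ratio of 34.6 and an exact 95% interval from 13.2 to 128.97 for MII Ctrl over MI Ctrl.

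The abundant members were mostly slightly lower in MII-spheres. ACTB and ACTG1 had log2 fold-changes of -0.24 and -0.15 (adjusted p = 2.2e-08 and 8.08e-05), PFN1 and CFL1 of -0.30 and -0.21 (4.2e-10 and 9.66e-07), MYL6 of -0.34 (9.2e-13) and TPM3 of -0.30 (8.9e-10). CNN2, PXN, CALD1, TPM4 and PDLIM7 were lower too, with log2 fold-changes from -0.42 to -0.14, while TPM1, TAGLN, TAGLN2, MYL12A, ZYX, ACTA2 and SRF did not pass the test. Without TMM scaling the median of all genes rose to 0.11, ACTG1, CALD1 and TPM4 no longer passed, and TPM1 (0.12, adjusted p = 0.0298) and ROCK1 (0.15, adjusted p = 0.00196) passed, for 13 higher and 12 lower. In that fit 11414 of 17862 genes were called in either direction. Of the other actin genes 29 of 88 were higher and 40 lower, against 31.7% and 32.5% of all genes tested. GSN, gelsolin (2.01, adjusted p = 2.89e-44), and the spectrin SPTBN1 (1.26, adjusted p = 4.96e-37) rose most, and DIAPH3 (-3.37, adjusted p = 1.38e-19) and MYH14 fell most.

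In MDA-MB-231 cells, SLUG KO was compared with WT, and 1 member passed the test over all 6 libraries. Of 37 members tested, 0 were higher and 1 lower in the same edgeR test, where 1.45% of 17428 genes were higher and 1.89% lower. At an unadjusted p under 0.05, 3 were higher and 5 lower, and DESeq2 called 0 higher and 2 lower (MYH10 and ACTA2). The share of all genes at that unadjusted p was not counted, and DESeq2 called 1213 of 22773 genes in either direction. The spread of the WT libraries was wide: for 14 of the 37 members WT replicate 2 was over 2-fold above the mean of the other WT libraries, and it was below both others for 12. The share of all genes that do so was not counted. Since this library stood apart over all genes, these counts describe the library and show nothing particular to the members. PXN, for example, was at 67.9, 354 and 63.9 CPM in WT and 61.1, 61.9 and 59.1 CPM in SLUG KO libraries, and MYH9 at 1737, 4978 and 1668 CPM and 2182, 2209.5 and 2091 CPM. The short light chain gene MYL12A went the other way, at 225, 89.3 and 262 CPM in WT and 415, 379 and 405 CPM in SLUG KO libraries.

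The member that passed the test was MYH10. It was at 155, 279 and 144 CPM in WT and 50.2, 50.9 and 53.8 CPM in SLUG KO libraries, each knockout library far below each WT library (log2 fold-change -1.90 ± 0.28 SE, adjusted p = 0.0148). Without WT replicate 2 the value was -1.52 ± 0.085 (SE, adjusted p = 3.26e-09). Leaving out any 1 SLUG KO library lost the call, with adjusted p from 0.0998 to 0.104 and log2 fold-changes from -1.91 to -1.86.

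Without WT replicate 2, 11 members were higher and 7 lower, where 16.8% of 17909 genes were higher and 14.4% lower. This library was singled out with its values known. Lower beside MYH10 were ACTA2 (-0.92 ± 0.24 SE, adjusted p = 0.00794), LMCD1 (-0.52 ± 0.15 SE, adjusted p = 0.017), AKAP12 (-0.41 ± 0.098 SE, adjusted p = 0.00467), TAGLN2 (-0.38 ± 0.089 SE, adjusted p = 0.00392), ROCK2 (-0.37 ± 0.085 SE, adjusted p = 0.00339) and PDLIM5 (-0.24 ± 0.085 SE, adjusted p = 0.0426). Higher were MYL12A (0.73 ± 0.097 SE, adjusted p = 3.63e-05), TPM2 (0.68 ± 0.12 SE, adjusted p = 0.000322), MYLK (0.63 ± 0.088 SE, adjusted p = 5.92e-05), ZYX (0.56 ± 0.12 SE, adjusted p = 0.00185), LIMA1 (0.53 ± 0.088 SE, adjusted p = 0.000264) and TGFB1I1 (0.49 ± 0.11 SE, adjusted p = 0.00209), and with smaller values MYH9, FLNA, CALD1, TPM1 and VCL (log2 fold-changes from 0.31 to 0.36). For TPM2, MYH9, FLNA, ZYX, TGFB1I1, MYLK and VCL, WT replicate 2 was the highest of the WT libraries. With it the fitted values were 0.19, -0.37, -0.34, -0.61, -0.12, 0.35 and 0.04. LIMA1 did not depend on that library for its direction, at 204, 176 and 212 CPM in WT and 298, 284 and 313 CPM in SLUG KO libraries. Of the other actin genes, 2 of 89 passed with all libraries, the formin DAAM1 (1.17, adjusted p = 0.0132) and the LIM protein FHL1 (1.06, adjusted p = 0.0179), both higher. With all libraries, 1.45% of all genes tested were higher and 1.89% lower.

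**Figure D4:**
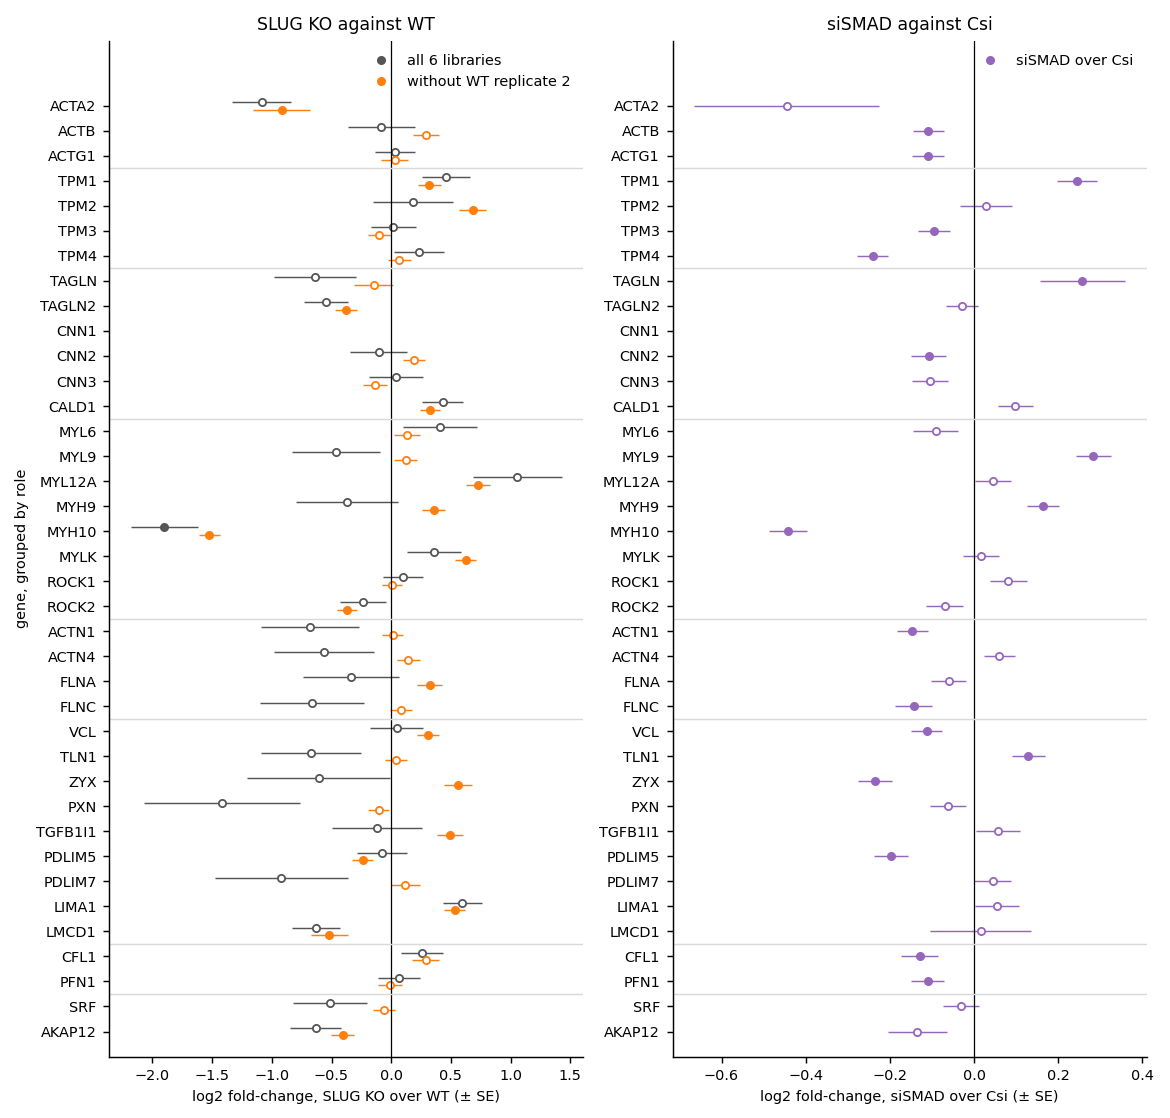
Log2 fold-change of each member with its SE from edgeR, in SLUG KO over WT (left, grey with all 6 libraries, orange without WT replicate 2) and in siSMAD over Csi (right). Filled points had an adjusted p under 0.05. MYH10 is the only filled grey point, and the siSMAD values all lie between -0.44 and 0.28.

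Depletion of SMAD2, SMAD3 and SMAD4 asked which of these genes depend on the SMAD complex in cells with no added TGFβ on their labels. Of 37 members tested, 5 were higher and 13 lower in siSMAD than in Csi libraries in the same edgeR test, where 16.3% of 17696 genes were higher and 19.7% lower. All differences were small. The log2 fold-changes ran from -0.44 to 0.28 with a median of -0.06, against 0.00 for all genes, so that 0 members were DEGs, against 0.978% of all genes upward and 0.927% downward. Scaling by library totals gave 6 higher and 8 lower, where 6460 of 17696 genes were called in either direction. Per the file headers, siSMAD replicates 1 and 2 were run on another flow cell than siSMAD replicate 3 and the Csi libraries, and with flow cell as a term 4 were higher and 13 lower. With the term 4362 of 17696 genes were called in either direction, and without it 6365. In the fit with the term TAGLN, MYH9, TLN1, VCL and TPM3 lost their calls (adjusted p = 0.203, 0.108, 0.372, 0.13 and 0.34), and CALD1 (0.17) and LIMA1 (0.20) passed upward and FLNA (-0.16) and MYL6 (-0.21) downward.

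MYH10 fell most among the members called. It was at 111.5, 108.2 and 112.5 CPM in Csi and 77.3, 82.4 and 84.99 CPM in siSMAD libraries (log2 fold-change -0.44 ± 0.046 SE, adjusted p = 2.64e-09). TPM4 was at 853, 911 and 892 CPM and 753.8, 739.9 and 753.4 CPM (-0.24 ± 0.038 SE, adjusted p = 4.79e-06), ZYX at 188, 188 and 194 CPM and 159.4, 164.2 and 160.4 CPM (-0.24 ± 0.04 SE, adjusted p = 1.65e-05), and PDLIM5 fell by 0.20 ± 0.039 (SE, adjusted p = 0.000166). For these genes every siSMAD library was below every Csi library. The remaining 9 that were lower, with log2 fold-changes from -0.15 to -0.10, were ACTN1, FLNC, CFL1, VCL, PFN1, ACTG1, ACTB, CNN2 and TPM3. Most of these calls depended on the setting. With library totals, CNN2, TPM3, ACTG1, CFL1 and PFN1 lost theirs (adjusted p from 0.0507 to 0.0988). ACTB lost its call with the gene-length correction (adjusted p = 0.059). FLNC lost its call without Csi replicate 3 (adjusted p = 0.0742), and VCL without Csi replicate 2 (adjusted p = 0.0735).

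Higher in siSMAD libraries were MYL9, at 140.2, 149.6 and 152.7 CPM in Csi and 181, 183 and 175 CPM in siSMAD libraries (log2 fold-change 0.28 ± 0.042 SE, adjusted p = 2.28e-06), and TPM1, at 67.9, 65.9 and 71.8 CPM and 80.9, 80.4 and 82.3 CPM (0.24 ± 0.047 SE, adjusted p = 0.0001). MYH9, TLN1 and TAGLN rose by 0.16, 0.13 and 0.26 (adjusted p = 0.000859, 0.0103 and 0.0472), the 3 that were lost with flow cell as a term. TAGLN also lost its call by DESeq2 (adjusted p = 0.118) and on leaving out Csi replicate 1 or 2 or any siSMAD library (0.0578 to 0.139), and TLN1 without replicate 2 of Csi (0.0542) or siSMAD (0.0697). None of these groups overlapped between siSMAD and Csi. AKAP12, which rose with TGFβ in both sphere lines, was at 23.8, 24.8 and 22.1 CPM and 20.9, 22.1 and 21.5 CPM (-0.13, adjusted p = 0.139), and SRF at -0.03 (adjusted p = 0.633). Of the other actin genes 22 of 90 were higher and 23 lower, against 16.3% and 19.7% of all genes tested. SYNPO (0.52, adjusted p = 2.47e-08) and RND3 (0.50, adjusted p = 1.08e-09) rose most, and CSRP2 (-1.04, adjusted p = 1.13e-06) and DIAPH3 (-1.02, adjusted p = 1.74e-16) fell most.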

How the data were processed

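Per the labels and the study's methods, the authors sequenced total RNA depleted of ribosomal RNA as paired-end reads, ran Trimmomatic on the reads, mapped what remained with STAR (GRCh38) and made the deposited counts per gene with featureCounts (Subread 2.0.0, GENCODE 38, mapping quality of at least 30, strand setting not given in the sources used here). The counts were whole numbers, not normalized, from 14124688 to 38406952 per library.

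Counts were scaled for depth (CPM) with TMM factors, over the 12 sphere libraries together and over each of the other comparisons. TPM used exon lengths and 19929 nuclear protein-coding genes, a base chosen after seeing the data because RN7SL1 took 30.7% to 54.6% of length-scaled counts in spheres. Each comparison was fitted over its 6 libraries, and the interaction over 12, with edgeR 4.0.16 (filterByExpr, glmQLFit, glmQLFTest, R 4.3.3) and Benjamini-Hochberg adjustment over all genes tested. Alternatives were DESeq2 1.42.0, DESeq2 size factors, library totals, no filter or a minimum of 10 counts in every sample, gene-length and GC-content corrections, a replicate block, 1 fit over all spheres, flow cell as a term, and each library left out. The GC-content corrections were chosen after seeing the data. The test code was checked on simulated counts.

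The 38 members and the other gene lists were chosen with earlier results of these data known. Members were named in the text throughout, and of the other actin genes the 2 with the largest change in each direction among those past the test. The 3 libraries of a group are biological replicates per the labels. Shared replicate numbers did not pair samples (correlations of deviations from -0.185 to 0.0517), so no block was used. Intervals on read counts cover counting error only.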

Additional observations from a re-analysis of the deposited data

Results flagged for a closer look

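The response to TGFβ differed between MI- and MII-spheres for 16 of the 36 members tested, by the interaction term of the edgeR fit over the 12 sphere libraries (adjusted p under 0.05). Of all 18591 genes tested, 12.6% differed toward MII- and 9.75% toward MI-spheres by the same term. Values are given as the log2 fold-change in MII- minus that in MI-spheres. Toward MII-spheres the differences were 1.12 for TAGLN, 0.55 for ACTN4, 0.45 for PDLIM5, 0.42 for MYL6, 0.32 for TPM3, 0.29 for VCL, 0.27 for ACTB, 0.26 for TPM4 and 0.22 for CFL1. Toward MI-spheres they were -0.998 for TPM2, -0.73 for AKAP12, -0.51 for ACTN1, -0.43 for TAGLN2, -0.35 for ACTG1, -0.26 for TPM1 and -0.20 for CALD1. The differences for CALD1, CFL1, TAGLN and TPM1 lost the test when some single libraries were left out, and that for CALD1 also by DESeq2 and without the low-count filter. The numerical rule for single outlying samples was not applied, since it needs more than 3 libraries in a group.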

How the results depend on the processing

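Over 36 settings, 3582 values of members were recomputed: 3385 kept their side of the threshold (3281 with the same sign, the others passing in neither fit), 123 lost the call, 67 gained one, and 7 changed sign with a call in 1 of the fits. The 7 were MYH9 in MII-spheres under TGFβ with library totals only (-0.049), FLNA there (-0.45) and the FLNA interaction (-1.17) without MII TGFβ replicate 3, and, in SLUG KO without WT replicate 2, MYH9 (0.36), FLNA (0.32), ZYX (0.56) and TGFB1I1 (0.49). Leaving out 1 library at a time, these reached 1.27 for the FLNA interaction (without MII TGFβ replicate 1), -0.61 for MYH9 and -0.32 for TGFB1I1 (without WT replicate 3), and -0.56 for FLNA and -0.94 for ZYX (without WT replicate 1). FLNA in MII-spheres reached 1.97 without MII TGFβ replicate 1. Of the lost calls, 64 were in siSMAD. Leaving out each library in turn gave 0 to 11 members higher and 0 to 7 lower in SLUG KO, with both highest counts without WT replicate 2, and 8 to 13 lower in siSMAD, with the lowest without Csi replicate 3, siSMAD replicate 1 or siSMAD replicate 3. Over all genes these fits called 133 to 5592 in SLUG KO and 5355 to 6423 in siSMAD, in either direction. In SLUG KO, DESeq2 gave 2 lower, the GC-content correction 1 higher and 2 lower, the same with a replicate block 1 higher, and the gene-length correction with the block 0 lower. Over all genes these 4 settings called 1213, 2148, 969 and 177 in either direction. In siSMAD, library totals gave 8 lower, as did the gene-length correction with the block, where 6460 and 6257 of all genes were called in either direction. Replicate numbers did not pair the samples. With a replicate block alone the counts higher and lower were 21 and 5 in MI-spheres, 24 and 3 in MII-spheres, 11 and 15 between lines, 9 and 7 for the interaction, 0 and 1 in SLUG KO, and 5 and 11 in siSMAD. Over all genes, in that order, 9833, 9132, 11297, 4273, 255 and 6308 were called in either direction. The cause of these shifts was not tested. Members with few reads (CNN1, MYL9, FLNC and LMCD1 in spheres) were limited by depth.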
